A study of Mus musculus with 12 samples.

Results

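The data described here are the transcripts of 47 genes of mitochondrial respiratory complexes III, IV and V and of cytochrome c, out of 22180 genes measured on 12 microarrays of mouse inguinal white adipose tissue (iWAT). They were chosen by name: every gene whose symbol starts with Uqc, Atp5 or Cox and a digit, together with Cyc1 and Cycs, except 9 cytochrome c oxidase genes (Cox4i1, Cox4i2, Cox6a1, Cox6a2, Cox7a1, Cox7a2, Cox7a2l, Cox8a and Cox8b). Of the 47, 34 encode structural subunits or cytochrome c, 11 encode assembly factors and 2 are pseudogenes (Atp5c1-ps and Uqcrh-ps1). Cox11, Uqcr10 and Cox6c also carry such names, but lay only on probe clusters that share several gene symbols and were not analysed here. The 6 subunits of these complexes that the mitochondrial genome encodes were likewise not analysed here.

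Complex III passes electrons from coenzyme Q to cytochrome c, a small soluble haem protein between the mitochondrial membranes. Complex IV, cytochrome c oxidase, passes them on to oxygen, and both complexes pump protons across the inner membrane. Complex V, the ATP synthase, lets the protons back through its membrane part (Fo) and makes ATP in its catalytic head (F1), whereas in brown and beige adipocytes the uncoupling protein UCP1 lets them back as heat.

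The study asked how the loss of BAF60a (gene Smarcd1), which belongs to the chromatin remodelling complex SWI/SNF, affects fat that is exposed to cold. AKO mice carry floxed Baf60a alleles and Cre recombinase under the Adiponectin promoter, so the gene is deleted in adipocytes, and other cells of the fat pad keep it. Flox mice are littermates with the floxed alleles, and both genotypes share standard chow and, per the labels, an age of 9 months (the methods give a younger range for cold acclimation). The 4 groups were AKO cold, flox cold, AKO RT and flox RT, with 3 arrays each: cold mice spent 7 days at 10 °C after stepwise cooling, RT mice stayed at 22 °C, and RNA of 1 or 2 mice was pooled per array. Values are log2 signals, so that a difference of 1 is a doubling, and signals of different genes, read by different probes, are not compared with each other.

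The arrays carried the adipocyte markers: 11 measured markers, among them Adipoq, Plin1 and Fabp4, averaged 10.7 to 10.8 in AKO cold, flox cold, AKO RT and flox RT arrays. Single markers differed. In AKO, 1 of the 11 fell in cold at an adjusted p below 0.05 (limma), against 0.0857% of all genes. Averaged over genotypes 1 fell in cold, against 0.455% of all genes. The lowest differences were -1.52 and -0.87. In AKO against flox in cold, 7 of the 11 were lower and 4 higher (median -0.10), and 0 passed the test (0.212% of all genes did). Smarcd1 signals were 6.26 to 6.37 in AKO cold arrays against 6.27 to 6.89 in flox cold arrays, and 5.89 to 6.30 in AKO RT arrays against 6.42 to 6.91 in flox RT arrays, and neither difference passed the test (adjusted p = 0.915 and 0.782, limma). These are whole-tissue values. By qPCR of separated iWAT cells, the paper found efficient loss of BAF60a in mature adipocytes, and not in the stromal vascular fraction, which holds other cells. The mean of 9 beige or brown adipocyte markers, centred on the 12 arrays, was 2.07 to 2.26 in AKO cold, -0.54 to 0.17 in flox cold, -0.85 to -0.71 in AKO RT and -1.25 to -1.03 in flox RT. Transcripts of skeletal muscle varied between single arrays. The centred mean of 25 muscle markers was -1.88, 1.31 and 3.09 in AKO cold, 0.85, -0.45 and -1.52 in flox cold, -0.56, 2.57 and -1.56 in AKO RT, and -1.09, -1.65 and 0.88 in flox RT. The lowest and highest signals of the defining markers were 4.52 and 10.63 (Acta1), 3.23 and 8.84 (Ckm), 2.03 and 11.33 (Myh4), 2.40 and 7.32 (Mylpf), and 3.58 and 9.96 (Tnnt3). The median of all values was 3.64. Low signals alone do not show whether muscle RNA was present in an array. Since muscle is rich in mitochondria, results are also given without the 3 arrays highest in these transcripts (AKO Cold 2 and 3 and AKO RT 2). In whole tissue, fewer cells of a type and less RNA per cell cannot be told apart. The limma p-values rest on the spread between arrays within groups, shared over the 4 groups, and not on the 3 arrays of a group alone.

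Promoters, taken here as 250 bases before to 50 after the start of a gene in RefSeq (GRCm38.p6), were matched for 36 of the 47 genes. A core of the site of NRF1, a factor known to act on respiratory genes, was searched as GCGCATGCG on both strands and lay in the promoters of 6 of the 36 genes (16.7%: Uqcr11, Uqcrc1, Cycs, Atp5g2, Atp5k and Atp5l), against 1.95% of 27025 genes. The following 5 promoters are shown because they belong to genes that rose in cold (Cycs, Uqcrc1, Atp5l and Atp5g3) or to a gene that did not pass the test (Uqcrh), and because they carry different motifs. Capitals mark the NRF1 core in Cycs (chr6:50566520-50566819, minus strand), Uqcrc1 (chr9:108936398-108936697, plus strand) and Atp5l (chr9:44920693-44920992, minus strand), the letters TCAAGGTCA of an ERR (oestrogen related receptor) site in Atp5g3 (chr2:73911277-73911576, minus strand), and the letters CCGGAAGT of GABPA and other ETS factors in Uqcrh (chr4:116075021-116075320, minus strand), each on either strand, and in Uqcrc1 matches on both strands overlap.
Cycs: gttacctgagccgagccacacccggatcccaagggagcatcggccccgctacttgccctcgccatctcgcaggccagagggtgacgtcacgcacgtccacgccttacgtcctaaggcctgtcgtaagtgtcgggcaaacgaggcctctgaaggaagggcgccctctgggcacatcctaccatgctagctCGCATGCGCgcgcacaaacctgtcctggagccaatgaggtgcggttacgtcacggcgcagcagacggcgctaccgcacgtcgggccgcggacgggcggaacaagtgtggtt
Uqcrc1: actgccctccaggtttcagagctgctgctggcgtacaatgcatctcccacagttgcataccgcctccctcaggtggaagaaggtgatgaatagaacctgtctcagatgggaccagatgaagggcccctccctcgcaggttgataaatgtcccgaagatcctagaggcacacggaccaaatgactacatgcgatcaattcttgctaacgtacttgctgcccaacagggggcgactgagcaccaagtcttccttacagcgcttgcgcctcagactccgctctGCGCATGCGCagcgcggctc
Atp5l: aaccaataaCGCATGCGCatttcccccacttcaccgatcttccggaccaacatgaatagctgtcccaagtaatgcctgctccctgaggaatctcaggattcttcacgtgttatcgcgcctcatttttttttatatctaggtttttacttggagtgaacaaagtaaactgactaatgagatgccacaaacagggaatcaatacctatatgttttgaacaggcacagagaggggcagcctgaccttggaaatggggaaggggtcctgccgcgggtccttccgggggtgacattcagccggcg
Atp5g3: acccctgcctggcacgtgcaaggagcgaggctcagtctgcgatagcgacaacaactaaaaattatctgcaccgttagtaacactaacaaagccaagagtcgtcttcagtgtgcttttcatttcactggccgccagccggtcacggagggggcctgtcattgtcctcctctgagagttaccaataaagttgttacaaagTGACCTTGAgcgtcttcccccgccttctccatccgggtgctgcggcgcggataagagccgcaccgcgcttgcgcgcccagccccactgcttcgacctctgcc
Uqcrh: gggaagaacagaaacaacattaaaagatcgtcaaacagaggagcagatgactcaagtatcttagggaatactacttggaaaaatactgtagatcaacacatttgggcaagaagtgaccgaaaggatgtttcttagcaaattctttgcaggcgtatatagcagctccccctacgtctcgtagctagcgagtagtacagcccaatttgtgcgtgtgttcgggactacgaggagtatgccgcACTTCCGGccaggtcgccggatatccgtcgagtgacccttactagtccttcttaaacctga

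The ERR letters TCAAGGTCA were in 1 of the 36 promoters (2.78%, Atp5g3) against 0.466% of all, and the shorter AAGGTCA, which lies within them, was in 5 (13.9%: Uqcc3, Atp5e, Atp5g3, Atp5k and Atp5l) against 5.38%. CCGGAAGT was in 7 (19.4%: Uqcr11, Uqcrh, Cox10, Cox14, Cox15, Cox16 and Atp5h) against 4.31%. AAGATGGCG, of YY1, was in 3 (8.33%: Cox10, Atp5j and Atp5j2) against 1.64%, and the GC box GGGCGG was in 18 (50%) against 38.2%. Of the 11 matched genes that rose in cold averaged over genotypes, 3 held the NRF1 core, 1 TCAAGGTCA, 2 AAGGTCA, 0 CCGGAAGT, 0 AAGATGGCG and 5 the GC box. Uqcr11, Atp5g2 and Atp5k hold the NRF1 core and did not pass the test. Whether any motif goes with the rise in cold was not tested. A match describes the letters of these windows and is not a measured binding site.

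In cold, averaged over both genotypes, 15 of the 47 genes rose and 0 fell at an adjusted p below 0.05 (limma), where 1.38% of all genes rose and 0.455% fell (1.83% in either direction). The 15 were 6 subunits of complex III (Cyc1, Uqcrb, Uqcrc1, Uqcrc2, Uqcrfs1 and Uqcrq), cytochrome c itself (Cycs), 3 subunits of complex IV (Cox5a, Cox5b and Cox6b1) and 5 of complex V (Atp5b, Atp5g3, Atp5l, Atp5md and Atp5pb). Signals in cold were above those at RT for 42 of 47 genes, against 49.2% of all genes, and the median difference was 0.29 (1.22-fold), against a median of -0.00277 over all genes. For 19 of the 47 genes, all 3 cold arrays lay above all 3 RT arrays in AKO and also in flox, which held for 2.36% of all genes, and 14 of the 15 genes that rose were among them. The exception was Cox5b.

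In AKO alone, 3 genes rose in cold, Cycs, Cox5a and Uqcrc2 (0.379% of all genes rose, 0.0857% fell and 0.464% were called in either direction), and 42 had a higher cold mean (50.6% of all genes), with a median difference of 0.29. In AKO, 29 had an unadjusted p below 0.05, all upward (5.43% of all genes), and 32 had all cold arrays above all RT arrays (8.9%). In flox alone, 0 of the 47 passed the test (0.00902% of all genes did, limma). There, 41 of the 47 were above 0 (48.3% of all genes) with a median of 0.26. Of the 47, 23 had all cold arrays above all RT arrays (7.02% of all genes), 21 had an unadjusted p below 0.05, all upward (4.98% of all genes), and the methods' t-test called 0 after Benjamini-Hochberg adjustment and 19 before (6.86% of all genes in either direction). In AKO the methods' t-test called 0 after and 22 before adjustment (10% of all genes). A call in one genotype and not in the other does not show that they differ, and no gene of the 47 passed the test of that difference.

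**Figure D1:**
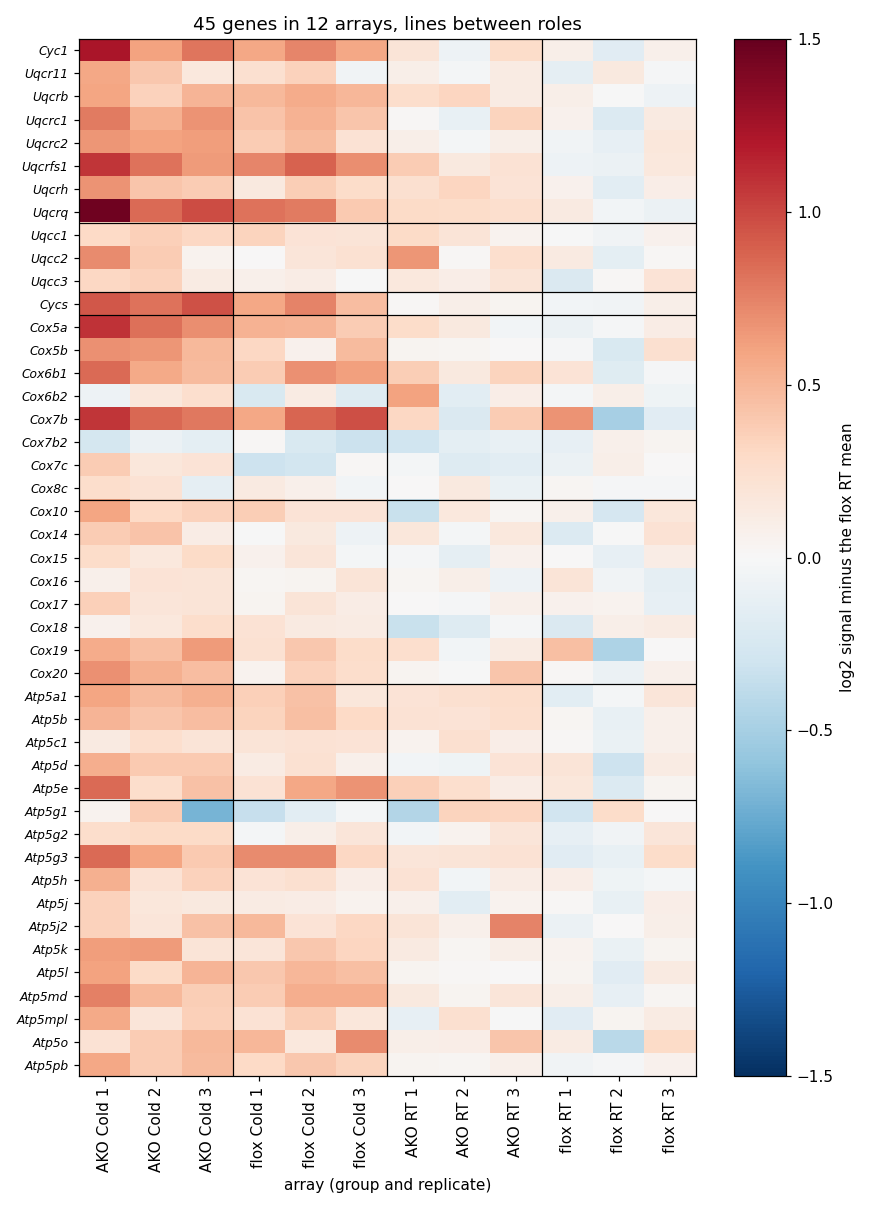
Log2 signal of 45 genes (rows, the 2 pseudogenes left out) in 12 arrays (columns) minus the flox RT mean of each gene, with horizontal lines between complex III subunits, complex III assembly, cytochrome c, complex IV subunits, complex IV assembly, F1 and Fo with stalk. Most rows are red in the 3 AKO cold and 3 flox cold arrays, and AKO Cold 1 holds the highest signal of 29 of the 47 genes.

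Single arrays stood out. AKO Cold 1 had the highest signal of 29 of the 47 genes, and flox RT 2 the lowest of 22. The mean of the 47 signals was 7.17, 7.04 and 7.01 in AKO cold arrays, 6.90, 6.97 and 6.88 in flox cold arrays, 6.77, 6.71 and 6.81 in AKO RT arrays, and 6.69, 6.59 and 6.72 in flox RT arrays. Every cold array was thus above every RT array, and within each temperature the AKO and flox arrays did not overlap in cold but did at RT. AKO Cold 1, the array with the highest mean, had the lowest muscle marker mean of all 12. Without it, 9 of the 47 genes rose in cold averaged over genotypes, as did 9 without AKO RT 1 and 9 without flox Cold 2, and without the 3 arrays highest in muscle transcripts 5 did (Cycs, Cyc1, Uqcrfs1, Uqcrq and Cox5a), with a median difference of 0.32. Leaving these out keeps AKO Cold 1 as the 1 AKO cold array, which is assumed to vary like the other groups.

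**Figure D2:**
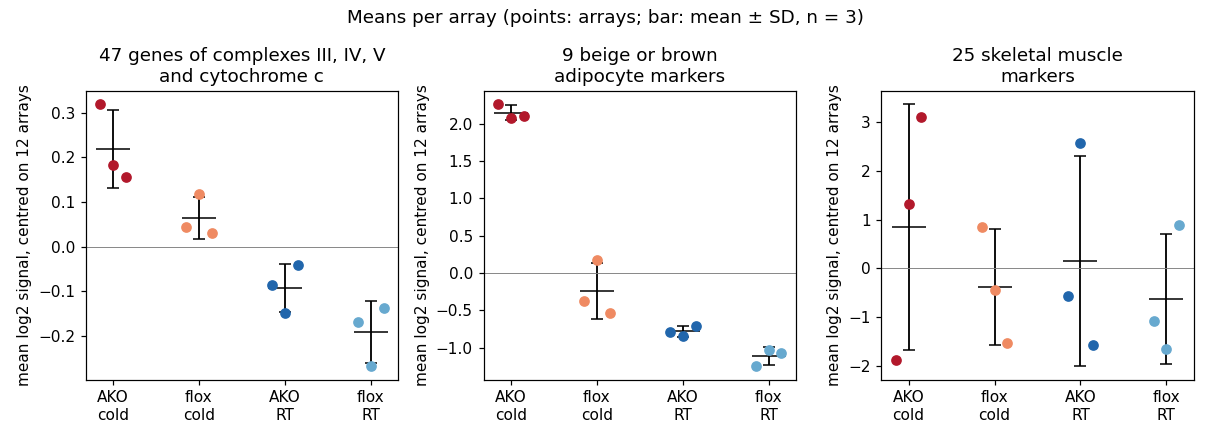
Mean log2 signal per array, centred on the 12 arrays, of the 47 genes (left), 9 beige or brown adipocyte markers (middle) and 25 skeletal muscle markers (right), with points for arrays and bars for mean ± SD (n = 3). The 47 genes are higher in all 6 cold arrays than in all 6 RT arrays, the beige markers stand apart in AKO cold, and the muscle markers spread from -1.88 to 3.09 within AKO cold.

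Among the subunits analysed of the 3 complexes, complex III had the most that rose in cold averaged over genotypes, 6 of 8. The median difference over the 8 was 0.49. The difference between the complexes was not tested, and their order depends on which genes were chosen. The complex IV list lacks the cytochrome c oxidase genes left out by name and Cox6c. It also holds Cox6b2, Cox7b2 and Cox8c, which are known from testis. Uqcrfs1, the Rieske iron-sulfur protein that hands electrons to cytochrome c1, was at 6.11, 5.85 and 5.68 in AKO cold and 5.77, 5.93 and 5.74 in flox cold. Uqcrfs1 at RT read 5.42, 5.19 and 5.26 in AKO and 4.97, 4.95 and 5.20 in flox. The cold and RT arrays did not overlap in either genotype, and the averaged cold difference was 0.68 (SE 0.091, 1.60-fold, adjusted p = 0.00367). In AKO it was 0.59 (SE 0.129, adjusted p = 0.0835) and in flox 0.77 (SE 0.129, adjusted p = 0.0876). Cyc1, cytochrome c1 itself, was at 8.16, 7.53 and 7.73 in AKO cold and 7.51, 7.65 and 7.51 in flox cold. Cyc1 at RT read 7.12, 6.85 and 7.21 in AKO and 7.02, 6.76 and 7.01 in flox. All cold arrays were again above all RT arrays, with AKO Cold 1 highest, and the averaged difference was 0.69 (SE 0.112, 1.61-fold, adjusted p = 0.0112).

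The core proteins Uqcrc1 and Uqcrc2, which form the part of complex III that faces the matrix, rose as well. Uqcrc2 was at 10.11, 10.05 and 10.07 in AKO cold and 9.82, 9.92 and 9.65 in flox cold. Uqcrc2 at RT read 9.53, 9.41 and 9.52 in AKO and 9.38, 9.32 and 9.61 in flox. Its 3 AKO cold arrays lay close together and above all others, the averaged difference was 0.47 (SE 0.077, 1.39-fold, adjusted p = 0.0112), and that in AKO was 0.59 (SE 0.109, adjusted p = 0.0415). The call in AKO was lost without any of 9 of the 12 arrays. Uqcrc1, whose promoter is printed above, was at 9.99, 9.74 and 9.88 in AKO cold and 9.64, 9.73 and 9.63 in flox cold. Uqcrc1 at RT read 9.23, 9.10 and 9.55 in AKO and 9.28, 9.01 and 9.35 in flox, and its averaged difference was 0.52 (SE 0.096, 1.43-fold, adjusted p = 0.0186), a call lost without AKO RT 1, flox Cold 2 or AKO Cold 1.

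Among the small subunits, Uqcrq had the largest averaged difference of complex III, 0.74 (SE 0.114, 1.67-fold, adjusted p = 0.00821). Uqcrq was at 5.13, 4.51 and 4.64 in AKO cold and 4.47, 4.44 and 4.05 in flox cold. Uqcrq at RT read 3.96, 3.93 and 3.91 in AKO and 3.80, 3.62 and 3.57 in flox, with AKO Cold 1 well above the other cold arrays. No group overlapped the next: AKO cold was highest, then flox cold, AKO RT and flox RT. Uqcrb, a small subunit that binds ubiquinone, was at 11.39, 11.14 and 11.31 in AKO cold and 11.29, 11.36 and 11.30 in flox cold. Uqcrb at RT read 11.06, 11.13 and 10.93 in AKO and 10.89, 10.79 and 10.72 in flox. Its averaged difference was 0.38 (SE 0.073, 1.30-fold, adjusted p = 0.0229), a call lost without any of 7 of the 12 arrays, and was made of 0.24 in AKO and 0.51 in flox. Uqcrh, the acidic hinge protein, had an averaged cold difference of 0.25 (SE 0.082, adjusted p = 0.187) and Uqcr11 of 0.25 (SE 0.098, adjusted p = 0.295), and neither passed the test. Uqcrh was at 8.07, 7.80 and 7.77 in AKO cold and 7.54, 7.76 and 7.66 in flox cold. Uqcrh at RT read 7.64, 7.71 and 7.59 in AKO and 7.45, 7.23 and 7.48 in flox. The cold arrays lay above the RT arrays of the same genotype, AKO above flox at both temperatures, and AKO RT overlapped flox cold. The assembly factors Uqcc1, Uqcc2 and Uqcc3, needed to build cytochrome b into complex III, had averaged differences of 0.20, 0.10 and 0.09, and none passed the test.

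Cycs, the electron carrier between complexes III and IV, was the gene of the 47 with the smallest p in cold. It was at 10.57, 10.46 and 10.60 in AKO cold and 10.22, 10.39 and 10.10 in flox cold. Cycs at RT read 9.66, 9.73 and 9.68 in AKO and 9.60, 9.59 and 9.73 in flox. The cold arrays lay above the RT arrays in both genotypes without overlap, and the AKO cold arrays lay above the flox cold arrays. The cold difference was 0.85 (SE 0.102, 1.80-fold, adjusted p = 0.00286) in AKO, 0.60 (SE 0.102, adjusted p = 0.0876) in flox and 0.72 (SE 0.072, 1.65-fold, adjusted p = 0.000615) averaged over genotypes. AKO exceeded flox by 0.31 (SE 0.102, adjusted p = 0.558) in cold and by 0.05 (SE 0.102, adjusted p = 0.964) at RT, neither past the threshold, and the difference between the 2 cold responses was 0.26 (95% confidence interval -0.06 to 0.57). The call in AKO held after each of 12 leave-one-out fits, but not with AKO Cold 1 as the one AKO cold array, without the 3 arrays highest in muscle transcripts (difference 0.90, adjusted p = 0.201). Another 4 clusters of probes carry the Cycs symbol, of which a pair have identical values. Their averaged cold differences were 0.68, 0.82 and 0.47, and their differences between the cold responses were 0.14, -0.27 and 0.39, so that the cluster with -0.27 ran opposite to the one used. That cluster gave an AKO minus flox difference of 0.00265 in cold. Since Cycs has many processed pseudogenes in the mouse genome, how far these probes also read them is uncertain.

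Of the 8 complex IV subunits analysed here, 3 rose in cold averaged over genotypes, and the median difference over the 8 was 0.27. Cox5a, a nuclear-encoded subunit on the matrix side of the complex, was at 8.27, 8.01 and 7.89 in AKO cold and 7.71, 7.70 and 7.57 in flox cold. Cox5a at RT read 7.46, 7.34 and 7.15 in AKO and 7.10, 7.17 and 7.30 in flox. Every cold array lay above every RT array, and every AKO cold array above every flox cold array. Its cold difference was 0.74 (SE 0.124, 1.67-fold, adjusted p = 0.0225) in AKO, 0.47 (SE 0.124, adjusted p = 0.249) in flox and 0.61 (SE 0.088, 1.52-fold, adjusted p = 0.00558) averaged. Leaving out any AKO RT array, AKO Cold 1 or AKO Cold 2 ended the call in AKO. Cox5b, the zinc-binding subunit, was at 8.27, 8.24 and 8.07 in AKO cold and 7.90, 7.64 and 8.05 in flox cold. Cox5b at RT read 7.62, 7.61 and 7.59 in AKO and 7.56, 7.36 and 7.82 in flox. The AKO cold and AKO RT arrays did not overlap, while flox Cold 2 lay within the flox RT arrays, and the averaged difference was 0.43 (SE 0.097, 1.35-fold, adjusted p = 0.0471), a call that was lost without any of 10 of the 12 arrays. A second, dimmer cluster of Cox5b gave an averaged difference of 0.62.

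Cox6b1, which links the monomers of the complex IV dimer, was at 9.20, 8.92 and 8.82 in AKO cold and 8.73, 9.03 and 8.97 in flox cold. Cox6b1 at RT read 8.73, 8.50 and 8.69 in AKO and 8.55, 8.17 and 8.33 in flox. Its averaged difference was 0.45 (SE 0.098, 1.37-fold, adjusted p = 0.0423), a call lost without any of 9 of the 12 arrays, and that in flox (0.56) exceeded that in AKO (0.34). Its paralog Cox6b2, known from testis, was at 3.60, 3.84 and 3.92 in AKO cold and 3.45, 3.81 and 3.49 in flox cold. Cox6b2 at RT read 4.28, 3.52 and 3.78 in AKO and 3.65, 3.77 and 3.62 in flox, with all groups overlapping and an averaged difference of -0.08 (SE 0.126, adjusted p = 0.849). Cox7b, a small membrane subunit, had the largest averaged difference of the 47 but did not pass the test: 0.78 (SE 0.183, adjusted p = 0.058). Cox7b was at 8.36, 8.15 and 8.08 in AKO cold and 7.88, 8.16 and 8.26 in flox cold. Cox7b at RT read 7.60, 7.07 and 7.67 in AKO and 7.96, 6.79 and 7.12 in flox, and flox RT 1 lay within the flox cold arrays and far from the other 2 flox RT arrays. A second, dimmer cluster of Cox7b gave 0.23 averaged and -0.05 in AKO. The paralog Cox7b2 was at 1.2082, 1.3880 and 1.3225 in AKO cold and 1.4953, 1.2448 and 1.1445 in flox cold. Cox7b2 at RT read 1.1678, 1.3225 and 1.3598 in AKO and 1.3484, 1.5517 and 1.5167 in flox, overlapping throughout, and its averaged difference was -0.08 (SE 0.083, adjusted p = 0.766). Cox8c, which like Cox7b2 is known from testis, was at 1.26 to 1.66 in AKO cold, 1.36 to 1.54 in flox cold, 1.31 to 1.55 in AKO RT and 1.39 to 1.43 in flox RT.

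Cox7c, a further small subunit, was the one gene of the 47 whose cold differences in the 2 genotypes had an unadjusted p below 0.05 for their difference (limma). Its difference was upward, and 2.5% of all genes met the same rule upward, so 1 of 47 is no more than that share. It was at 5.54, 5.33 and 5.36 in AKO cold and 4.85, 4.88 and 5.17 in flox cold. Cox7c at RT read 5.12, 4.96 and 4.99 in AKO and 5.06, 5.24 and 5.16 in flox. AKO cold arrays lay above all other arrays, while the flox cold arrays overlapped flox RT and 2 of them were the lowest of the 12. The cold difference was 0.39 in AKO and -0.19 in flox. The difference between these, 0.58 (95% confidence interval 0.22 to 0.93, unadjusted p = 0.00424), did not pass the test over all genes (adjusted p = 0.978).

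The assembly factors of complex IV deliver copper (Cox17, Cox19), make haem a (Cox10, Cox15) or insert and hold the core subunits (Cox14, Cox16, Cox18, Cox20). All 8 were above 0 in cold in both genotypes, with medians of 0.31 in AKO and 0.14 in flox and averaged differences of 0.12 (Cox14) to 0.37 (Cox19), and 0 passed the test. Of the 8, 6 had an unadjusted p below 0.05 averaged over genotypes, against 6.97% of all genes upward, and Cox20 and Cox10 came nearest to the threshold (adjusted p = 0.136 and 0.145).

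**Figure D3:**
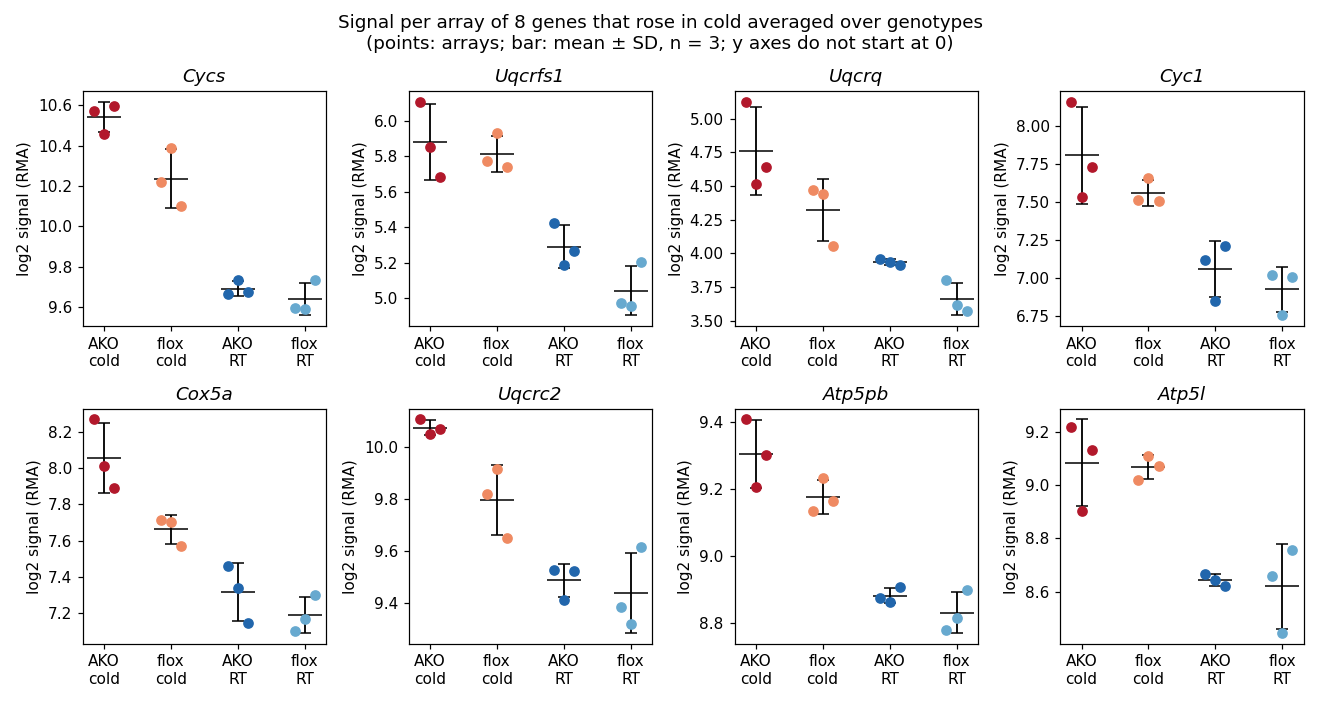
Log2 signal of 8 genes that rose in cold averaged over genotypes, with a point per array and bars for mean ± SD (n = 3) in AKO cold, flox cold, AKO RT and flox RT; the y axes are cut and differ between genes. In all 8 the cold arrays of each genotype lie above the RT arrays of that genotype, as for Cycs at 10.46 to 10.60 in AKO cold against 9.66 to 9.73 in AKO RT.

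In complex V, 5 of 17 subunits rose in cold averaged over genotypes, 1 of F1 and 4 of Fo and the stalks. Atp5b, the catalytic beta subunit, was at 11.57, 11.48 and 11.52 in AKO cold and 11.39, 11.51 and 11.36 in flox cold. Atp5b at RT read 11.27, 11.26 and 11.30 in AKO and 11.08, 10.95 and 11.14 in flox. Cold arrays lay above RT arrays in both genotypes, AKO lay above flox at RT and overlapped it in cold, and the averaged cold difference was 0.30 (SE 0.065, 1.23-fold, adjusted p = 0.0391), a call lost without any of 10 of the 12 arrays. Its partner alpha subunit, Atp5a1, had an averaged difference of 0.31 (SE 0.079, adjusted p = 0.0831) and did not pass. The remaining F1 subunits, Atp5c1 (gamma), Atp5d (delta) and Atp5e (epsilon), had averaged differences of 0.14, 0.28 and 0.38.

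Atp5pb, subunit b of the side stalk that keeps F1 from turning, was at 9.41, 9.21 and 9.30 in AKO cold and 9.13, 9.23 and 9.16 in flox cold. Atp5pb at RT read 8.87, 8.86 and 8.91 in AKO and 8.78, 8.81 and 8.90 in flox. Its averaged difference was 0.39 (SE 0.065, 1.31-fold, adjusted p = 0.0126), from 0.42 in AKO and 0.35 in flox, with cold and RT arrays apart in both genotypes. Atp5l (subunit g), one of the small Fo subunits that hold ATP synthase dimers together, was at 9.22, 8.90 and 9.13 in AKO cold and 9.02, 9.11 and 9.07 in flox cold. Atp5l at RT read 8.66, 8.64 and 8.62 in AKO and 8.66, 8.44 and 8.76 in flox. The 2 genotypes had nearly equal cold differences, 0.44 in AKO and 0.45 in flox, and the averaged one was 0.45 (SE 0.080, 1.36-fold, adjusted p = 0.0164). Atp5md, another small protein of the dimer interface, was at 10.26, 10.00 and 9.88 in AKO cold and 9.90, 10.06 and 10.06 in flox cold. Atp5md at RT read 9.65, 9.55 and 9.70 in AKO and 9.60, 9.39 and 9.54 in flox, with an averaged difference of 0.45 (SE 0.083, 1.37-fold, adjusted p = 0.0186), a call lost without AKO RT 2 or flox Cold 2. The remaining Fo and stalk genes outside the c subunit (Atp5h, Atp5j, Atp5j2, Atp5k, Atp5mpl and Atp5o) had averaged differences of 0.16 (Atp5j2) to 0.36 (Atp5k), and none passed the test. For Atp5j2 the difference was -0.01 in AKO and 0.33 in flox, and a second cluster of Atp5h gave -0.03 where the one used gave 0.23.

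Atp5g1, Atp5g2 and Atp5g3 encode the same mature c subunit, whose ring turns as protons pass. Atp5g3, the one with the ERR letters in its promoter, rose: it was at 8.48, 8.22 and 8.02 in AKO cold and 8.34, 8.34 and 7.94 in flox cold. Atp5g3 at RT read 7.81, 7.83 and 7.84 in AKO and 7.46, 7.52 and 7.91 in flox, with an averaged difference of 0.49 (SE 0.112, 1.41-fold, adjusted p = 0.0493), a call lost without any of 9 of the 12 arrays. Atp5g2, with an NRF1 core, was at 10.02, 10.04 and 10.04 in AKO cold and 9.72, 9.85 and 9.94 in flox cold. Atp5g2 at RT read 9.72, 9.81 and 9.94 in AKO and 9.63, 9.71 and 9.93 in flox. Its averaged difference was 0.14 (SE 0.078, adjusted p = 0.478), and flox cold and flox RT overlapped. Atp5g1 was at 3.002, 3.329 and 2.253 in AKO cold and 2.598, 2.791 and 2.918 in flox cold. Atp5g1 at RT read 2.506, 3.284 and 3.266 in AKO and 2.656, 3.229 and 2.959 in flox, with an averaged difference of -0.17 (SE 0.194, adjusted p = 0.789) and all groups overlapping. The differences among these paralogs were not tested.

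Genes with low signals gave no calls. Of the 47 genes, 6 had a mean below the median of all values (3.64): Atp5j2, Atp5g1, Cox8c, Cox7b2 and both pseudogenes. Of these, 2 were above 0 in cold averaged over genotypes and 0 passed, against 40 above 0 and 15 that rose among the other 41. A filter that left out dim genes kept 42 of the 47. Atp5c1-ps was at 0.8617, 1.2449 and 0.9619 in AKO cold and 1.2168, 0.6792 and 0.5662 in flox cold. Atp5c1-ps at RT read 1.5002, 0.7606 and 1.5277 in AKO and 1.3809, 1.1755 and 1.0285 in flox, with an averaged difference of -0.31 (SE 0.157, adjusted p = 0.45).

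**Figure D4:**
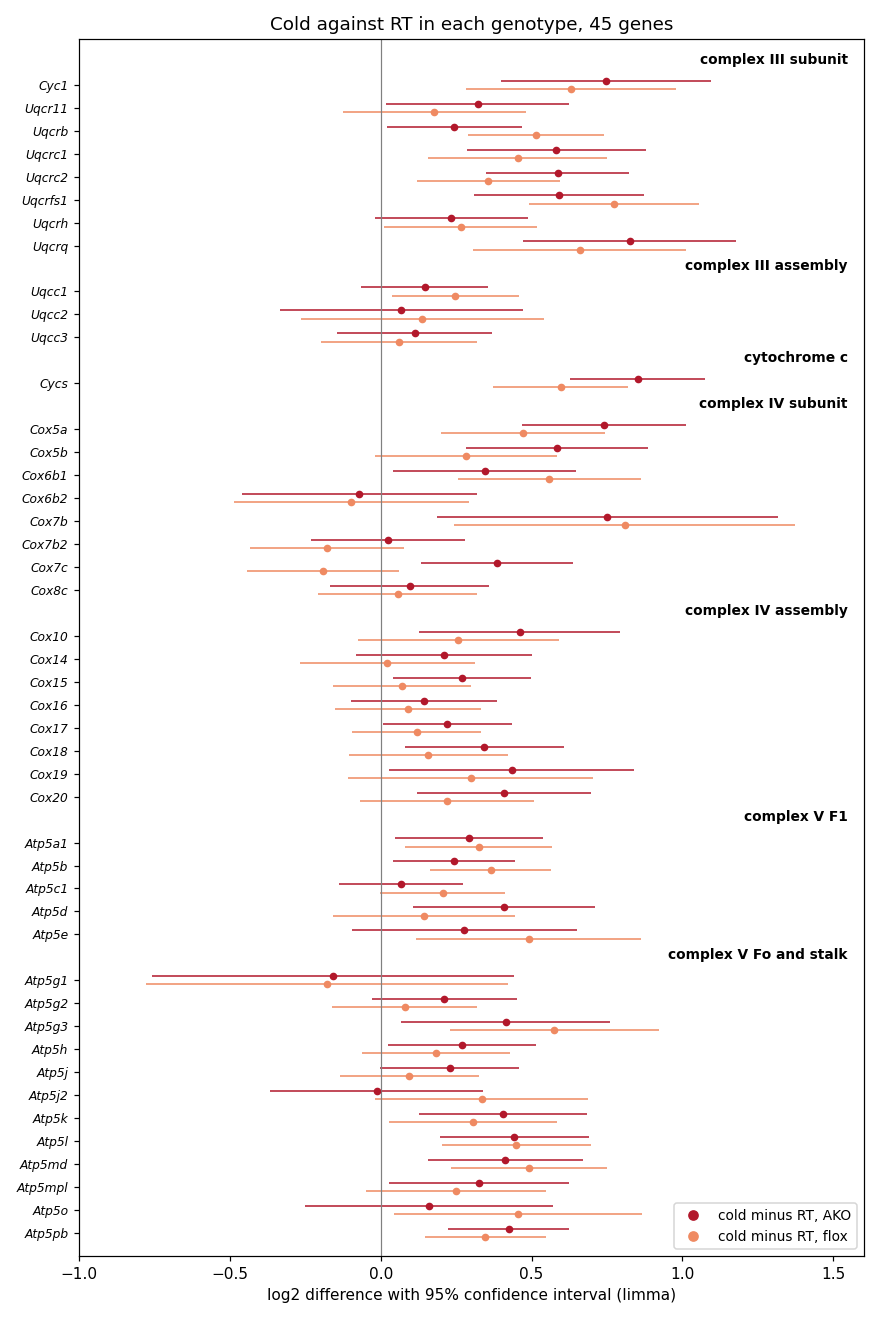
Log2 difference of cold minus RT with its 95% confidence interval (limma) in AKO and in flox for 45 genes, grouped by role (the 2 pseudogenes left out). Most intervals of complex III subunits and of Cycs lie right of 0 in both genotypes, and the AKO and flox intervals overlap for most genes, with Cox7c the pair set furthest apart.

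AKO was compared with flox to ask what the loss of BAF60a in adipocytes does to these genes. In cold, 43 of the 47 genes had a higher mean in AKO than in flox (50.6% of all genes), with a median difference of 0.15 (1.11-fold), and 0 passed the test (0.212% of all genes did, limma). At an unadjusted p below 0.05 there were 7, all upward (3.23% of all genes), and the methods' t-test called 0 after adjustment and 8 at that unadjusted threshold (5.83% of all genes in either direction). For 15 of the 47 genes all AKO cold arrays lay above all flox cold arrays, against 5.7% of all genes. These were Uqcrc1, Uqcrc2, Uqcrh, Uqcrq, Uqcc3, Cycs, Cox5a, Cox5b, Cox7c, Cox19, Cox20, Atp5a1, Atp5d, Atp5g2 and Atp5j. The smallest p were those of Cox7c, which differed by 0.45 (SE 0.115, adjusted p = 0.265), Cox5a, by 0.39 (SE 0.124, adjusted p = 0.474), and Cycs. Without AKO Cold 1 the median was 0.08, and 37 genes were above 0. Muscle markers leaned the same way, with 25 of 25 above 0 (median 1.28) and 0 called (limma, 0 at an unadjusted p below 0.05), and without the 3 arrays highest in them the median over the 47 genes was 0.26. That value rests on AKO Cold 1 as the one AKO cold array left.

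At RT, 40 of the 47 were higher in AKO (48.3% of all genes), with a median of 0.10, and 0 passed the test (0.144% of all genes, limma). At an unadjusted p below 0.05 there were 3, Atp5b, Uqcrb and Uqcrh, all upward (3.06% of all genes), and the methods' t-test called 0 after adjustment and 4 before (5.48% of all genes in either direction). Atp5b differed by 0.22 (SE 0.092, adjusted p = 0.782), Uqcrb by 0.24 (SE 0.103, adjusted p = 0.797) and Uqcrh by 0.26 (SE 0.116, adjusted p = 0.805). The AKO RT arrays lay above all flox RT arrays for these 3, Uqcrq and Atp5a1, 5 of 47, against 5.61% of all genes. Of the muscle markers, 24 of 25 were above 0 at RT (median 0.78), and without the 3 arrays highest in them the median over the 47 genes was 0.16. For a single gene, the median distance from its difference to its 95% confidence limit was 0.28 at either temperature. This is not the error of the median over the 47 genes, which was not estimated. In AKO against flox averaged over temperatures, 44 of 47 genes were above 0 (48.6% of all genes) with a median of 0.13, and 0 passed the test (0.537% of all genes, limma). Uqcrh, Uqcrq and Atp5a1, 3 of 47, had AKO above flox in every array at both temperatures (0.748% of all genes), 7 had an unadjusted p below 0.05 (3.86% of all genes upward), and the smallest adjusted p was 0.41, of Uqcrq (0.35).

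**Figure D5:**
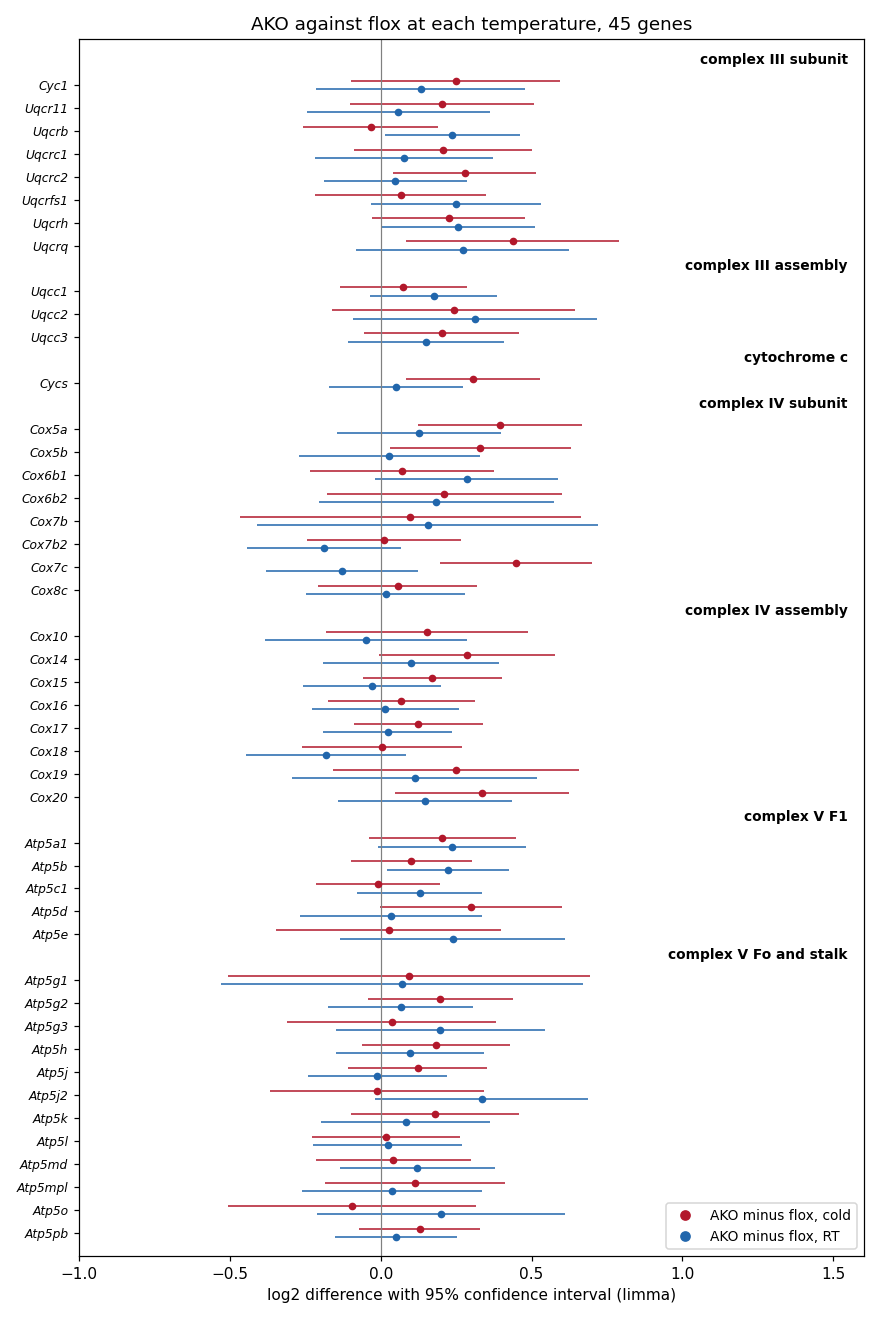
Log2 difference of AKO minus flox with its 95% confidence interval (limma) in cold and at RT for 45 genes, grouped by role (the 2 pseudogenes left out). Most points lie right of 0 and most intervals include 0, and for Cox7c the difference is 0.45 in cold and -0.13 at RT.

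Whether cold acted differently in AKO and in flox was tested as an interaction. The cold difference was larger in AKO for 31 of the 47 genes (51.6% of all genes), with a median difference of 0.09. Without AKO Cold 1 the median was 0.03, with 26 genes above 0. With all arrays 0 passed the test (0.018% of all genes, limma, with 1 gene at an unadjusted p below 0.05, upward, against 2.5% of all). All 8 assembly factors of complex IV had the larger cold difference in AKO (median 0.19), and 4 of 5 F1 subunits had the larger one in flox (median -0.12). Of the 15 genes that rose in cold averaged over genotypes, 8 had the larger difference in AKO. Uqcrb leaned the other way from Cycs and Cox7c, at -0.27 (95% confidence interval -0.59 to 0.05). For a single gene, the median distance from its difference to its 95% confidence limit was 0.39, so a difference of that size between the genotypes in 1 gene was within the error. The beige or brown adipocyte markers, on the same arrays, had a median interaction of 1.43 with all 9 above 0, and 2 of 9 passed the test. In AKO against flox 6 of 9 rose in cold (median 2.18) and 2 of 9 at RT (median 0.02). All 11 adipocyte markers were below 0 in the interaction (median -0.12), and 0 passed (limma, 1 at an unadjusted p below 0.05).

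Other genes of respiration gave a frame for these values. In cold averaged over genotypes, 39 of 42 complex I genes were above 0, 16 rose and the median was 0.34. They were picked by symbols starting with Nduf and a, b, c, s or v, a pattern that also fits assembly factors named Ndufaf. All 4 complex II genes (Sdha, Sdhb, Sdhc and Sdhd) rose, with a median of 0.44. The genes of complexes III to V and cytochrome c thus had 15 of 47 called, or 15 of the 34 that encode structural subunits or cytochrome c. For the complex I list this was 16 of 42. These lists differ in make-up, and the difference between them was not tested. Of 71 mitochondrial ribosome genes, 63 were above 0 and 3 rose, with a median of 0.19. Among 24 further assembly genes of these complexes 22 were above 0, and 1 rose, Taco1 (0.37, adjusted p = 0.0335), which activates the translation of a mitochondrially encoded complex IV subunit.

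Regulators of respiratory genes were listed as well, and 10 of 13 were above 0 and 2 rose in cold averaged over genotypes. They were Ppargc1b (0.48, adjusted p = 0.025), a coactivator of mitochondrial biogenesis, and Tfb2m (0.54, adjusted p = 0.025), a mitochondrial transcription factor. Ppargc1a, which is also among the 9 beige or brown adipocyte markers, had a difference of 0.63 (adjusted p = 0.118). Its cold difference was 1.03 in AKO, and the difference between the 2 cold responses was 0.80. At RT its AKO minus flox difference was -0.62. In these 3 comparisons 0 of the 13 regulators passed the test (limma). Nrf1 (-0.02), Gabpa (0.02), Yy1 (-0.03) and Esrra (0.22), whose motif letters were counted above, had adjusted p of 0.967, 0.962, 0.908 and 0.339, and none passed the test.

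Markers of other cells were read on the same arrays. All 8 macrophage markers were lower in cold in both genotypes, with a median of -0.28 in AKO and -0.30 in flox, and 0 passed the test (limma, 5 at an unadjusted p below 0.05 averaged over genotypes). In flox, cold also had lower means of 11 of 11 mammary epithelium markers (median -0.36), 7 of 7 B lymphocyte markers (-0.21) and 5 of 5 T lymphocyte markers (-0.23), and 0 passed (limma, 0 at an unadjusted p below 0.05). In AKO, 9 of 11, 6 of 7 and 2 of 5 of these were above 0 in cold (medians 0.18, 0.08 and -0.19). At RT, AKO had lower means than flox for all 11 mammary (median -0.56), all 7 B (-0.17) and all 5 T lymphocyte markers (-0.19), and 0 passed (limma, 1 mammary marker at an unadjusted p below 0.05). Of the 25 muscle markers, 24 were above 0 in AKO (median 0.72) and 19 in flox (median 0.30), and 0 passed the test in either (0 at an unadjusted p below 0.05). With the muscle marker mean of each array as a covariate, 13 of the 47 genes rose in cold averaged over genotypes, and the median difference was 0.28. The part of macrophages, lymphocytes, mammary epithelium and beige adipocytes in these results was not tested.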

How the data were processed

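RNA of iWAT from 4 groups of 3 arrays each was hybridised to Affymetrix mouse gene arrays. The deposited values are log2 signals per probe cluster, which the authors made by robust multi-array averaging in R 3.1.1; the annotation package is not given in the sources used here, nor is joint normalization of the 12 arrays. Of 41345 clusters, 23521 had 1 gene symbol, 1820 had several and 16004 had none. Where a gene had several clusters the one of highest average signal was taken, which gave 22180 genes, and 0 columns were left out. No further normalization was applied, and arrays give no read depth, so that their number limits the precision.

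Differences were tested with limma 3.58.1 (lmFit and eBayes, R 4.3.3) in 1 fit of the 4 groups over all genes, with Benjamini-Hochberg adjustment over 22180 genes and a threshold of 0.05. Contrasts were AKO minus flox at each temperature, cold minus RT in each genotype, their averages and the interaction; averages use the same arrays as their parts. The median standard error of a difference over the 47 genes was 0.128 within a temperature or genotype and 0.0903 for averages. With 3 arrays against 3, an exact permutation test cannot go below 0.1, so none was used. Groups were called apart where all arrays of one lay above all arrays of the other. The per-array values named are those of genes that passed the test, of the smallest p in each comparison, of the highest and lowest mean signals, and of paralogs. Alternatives were dim genes left out, trended and robust variance, arrays centred on their medians, quantile normalization, array weights, all clusters of a gene tested or averaged, the 2 groups alone, the methods' t-test, other thresholds, each array left out, the replicate number as a block, muscle markers as a covariate, and 3 arrays high in muscle transcripts left out. The members, gene lists and alternatives were chosen with earlier results of these data known. The statistics were tested on simulated data.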

Additional observations from a re-analysis of the deposited data

How the results depend on the processing

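The count of genes that rose in cold averaged over genotypes, 15, was 5 with a minimum fold of 1.5, 5 without the 3 arrays high in muscle transcripts and 9 to 15 with each array left out, and Cycs, Cyc1, Uqcrfs1, Uqcrq and Cox5a passed under each alternative run. In AKO alone the count, 3, was 7 with dim genes left out, 8 with trended and robust variance, 1 with the arrays of the 2 groups alone, 0 with the methods' t-test after Benjamini-Hochberg and 22 before it, 7 at an adjusted p below 0.1, 0 without the arrays high in muscle transcripts (median 0.40) and 1 to 4 with each array left out. In flox alone the count, 0, was 2 with dim genes left out, 3 with trended and robust variance, 19 with the unadjusted t-test, 2 at an adjusted p below 0.1 and 0 to 2 with each array left out (2 without flox RT 3). The flox median of 0.26 was 0.31 with arrays centred on their medians and 0.20 to 0.31 with each array left out. Between genotypes the count of 0 was 4 at RT and 8 in cold with the unadjusted t-test. Without the arrays high in muscle transcripts, the median AKO minus flox difference was 0.16 at RT, 0.26 in cold and 0.21 averaged, and with each array left out that at RT was 0.058 to 0.16. Under these settings no median changed direction, and no gene did in a comparison where it passed the test or was among the smallest p. The other named genes were not followed over the settings. Other clusters of a gene could change direction: Atp5h gave -0.03 (0.23 in the cluster used) in cold averaged over genotypes, Cox7b -0.05 (0.75) in cold in AKO, and Cycs -0.27 (0.26) for the interaction.

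Whether replicate numbers pair the arrays is not stated. Deviations of same-numbered arrays of different groups correlated at -0.237 to 0.283 over 18 pairs (median 0.035). Those of differently numbered arrays correlated at -0.441 to 0.401 over 36 pairs (median -0.009). These values show no clear pairing and cannot exclude it. With the number as a replicate block, 11 genes rose in cold averaged over genotypes, without Atp5b, Atp5g3, Cox5b and Cox6b1 (adjusted p = 0.0734, 0.0865, 0.062 and 0.0627, limma), and 3 in AKO, where Uqcrc2 was lost and Uqcrq gained.

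Over all genes, calls over the alternatives were 61 to 670 in cold averaged over genotypes (407 in the fit described), 0 to 2220 in AKO (103), 0 to 1521 in flox (2), 1 to 1292 between genotypes in cold (47), 1 to 1216 at RT (32), 55 to 190 averaged (119) and 4 to 13 for the interaction (4). The upper ends 2220, 1521, 1292 and 1216 are counts of the t-test at an unadjusted p below 0.05. That test was not run for the averages or the interaction, so the ranges cannot be compared with each other. The number of arrays, 3 a group, limits what could be detected.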
